A study of Mus musculus with 18 samples.

Results

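The p53 targets that promote cell death were followed here in the lungs of mice given a mixture of polycyclic aromatic hydrocarbons (PAHs). The set holds 10 genes, Bax, Bbc3, Pmaip1, Fas, Tnfrsf10b, Perp, Trp53inp1, Aen, Ei24 and Apaf1, chosen by name for their role. Earlier results of these data were known when these genes were chosen. All probes whose RefSeq accession belonged to one of these genes were taken, which gave 12 of the 55681 probes on the array and 10 of the 20660 genes that could be named. Aen and Trp53inp1 had 2 probes each and the other genes had 1. Where a gene had 2, the brighter probe stands for it and the other is given beside it.

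The lungs came from 18 male MutaTMMouse animals, a transgenic strain whose genome carries a bacterial reporter gene for scoring mutations, aged about 12 weeks at the start. The mice were gavaged daily for 28 days with olive oil alone (vehicle, n = 5) or with the 4PAH-Mix in olive oil at 12.5 (low dose, n = 4), 25 (medium dose, n = 5) or 50 (high dose, n = 4) mg of benzo(a)pyrene (BaP) equivalents/kg-bw/day. The mixture holds BaP, benz(a)anthracene, benzo(b)fluoranthene and chrysene. Tissue was taken 72 hours after the last dose, and RNA from random sections of each lung, labelled with Cy5, was hybridized to its own array beside Cy3-labelled Universal Mouse Reference RNA, a pool from 11 mouse cell lines that is the same on all arrays. The dyes were not swapped. Each value below is the loess-normalized log2 ratio of lung to reference RNA, and each change is the difference of 2 group means on that log2 scale. Levels of different genes are not compared, since each probe binds with its own strength.

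The tumour suppressor p53 is a transcription factor that accumulates when DNA is damaged, as it is by the bulky adducts that metabolites of PAHs leave on DNA. Some of its target genes stop the cell cycle or serve repair, and others prepare the cell for death. The latter act along separate routes. Bax, Bbc3 (PUMA) and Pmaip1 (NOXA) belong to the BCL-2 family that opens the outer mitochondrial membrane, Apaf1 builds the apoptosome that activates caspases after cytochrome c has been released, Fas and Tnfrsf10b are death receptors at the cell surface, Trp53inp1 promotes p53 activity and autophagy, Aen is a nuclease that cuts DNA in dying cells, Ei24 is a protein of the endoplasmic reticulum, and Perp sits in the plasma membrane and at desmosomes. No cell death was measured in these data.

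Promoter sequences are shown first for the 3 members in which the consensus of the p53 half-site, the 10-base unit of the p53 response element, was found. RefSeq promoter windows of GRCm38.p6, 250 bases before to 50 bases after a transcript's start, were at hand for 6 members (9 windows). The half-site consensus reads the same on both strands. It was found in 4 windows of 3 members, Bax, Ei24 and Aen, and in 8.36% of all 32851 windows. Counted from the start site, the first base of the match is at -201 in Bax and at -10 in Ei24. In Aen it is at 11 from the first of 2 start sites and at -121 from the other. The letters of the match are in capitals. For Aen, whose match lies within the gene, only the 30 bases around it are given.
Bax, chr7:45466904-45467148, minus strand: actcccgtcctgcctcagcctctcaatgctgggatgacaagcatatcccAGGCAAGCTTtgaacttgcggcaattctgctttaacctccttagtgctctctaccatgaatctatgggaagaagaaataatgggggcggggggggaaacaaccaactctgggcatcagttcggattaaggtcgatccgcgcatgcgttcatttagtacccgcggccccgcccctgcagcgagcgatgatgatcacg
Ei24, chr9:36797335-36797584, minus strand: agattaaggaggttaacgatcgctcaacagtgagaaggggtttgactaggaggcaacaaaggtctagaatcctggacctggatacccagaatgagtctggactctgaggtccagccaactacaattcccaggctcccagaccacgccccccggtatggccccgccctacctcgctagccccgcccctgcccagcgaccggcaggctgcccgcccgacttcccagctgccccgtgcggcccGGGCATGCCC
Aen, chr7:78895927-78895956, plus strand: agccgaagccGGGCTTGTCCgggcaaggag
These matches describe the letters in these windows. The windows of Bbc3, Fas and Apaf1 held no match, and Perp, Tnfrsf10b, Trp53inp1 and Pmaip1 were not searched.

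Aen, Bax, Trp53inp1 and Tnfrsf10b were upregulated in the high-dose lungs, by 2.68-, 2.36-, 2.34- and 1.66-fold. Bbc3, Pmaip1, Ei24 and Apaf1 rose by less than 1.5-fold, and neither Fas nor Perp passed the test at any dose. A gene was called when its limma p-value, adjusted over all probes, was 0.05 or less and its fold change was at least 1.5. By this rule 2 members were called higher at the low dose (Aen and Trp53inp1), beside 0.0647% of all probes. At the medium dose 3 members were called higher (Bax as well), beside 0.278% of all probes, and at the high dose 4 (Tnfrsf10b as well), beside 0.399%. No member was called lower at any dose, where 0.0251%, 0.447% and 0.805% of all probes were called lower at the low, medium and high dose. With median centring of each array in place of loess, 0, 2 and 3 members were called at these doses: the changes were no smaller, but Aen and Trp53inp1 at the low dose (1.00 and 0.86), Bax at the medium (1.20) and Tnfrsf10b at the high dose (0.88) missed the adjusted p. Without the fold limit, 2, 7 and 8 members passed the adjusted p upward, beside 0.0952%, 1.64% and 1.8% of all probes. The median change of the 10 members went from 0.27 in low-dose through 0.42 in medium-dose to 0.45 in high-dose lungs, and that of all probes was 0.00 at each dose. In bulk lung, more cells of a type that carries a transcript and more transcript per cell cannot be told apart.

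**Figure D1:**
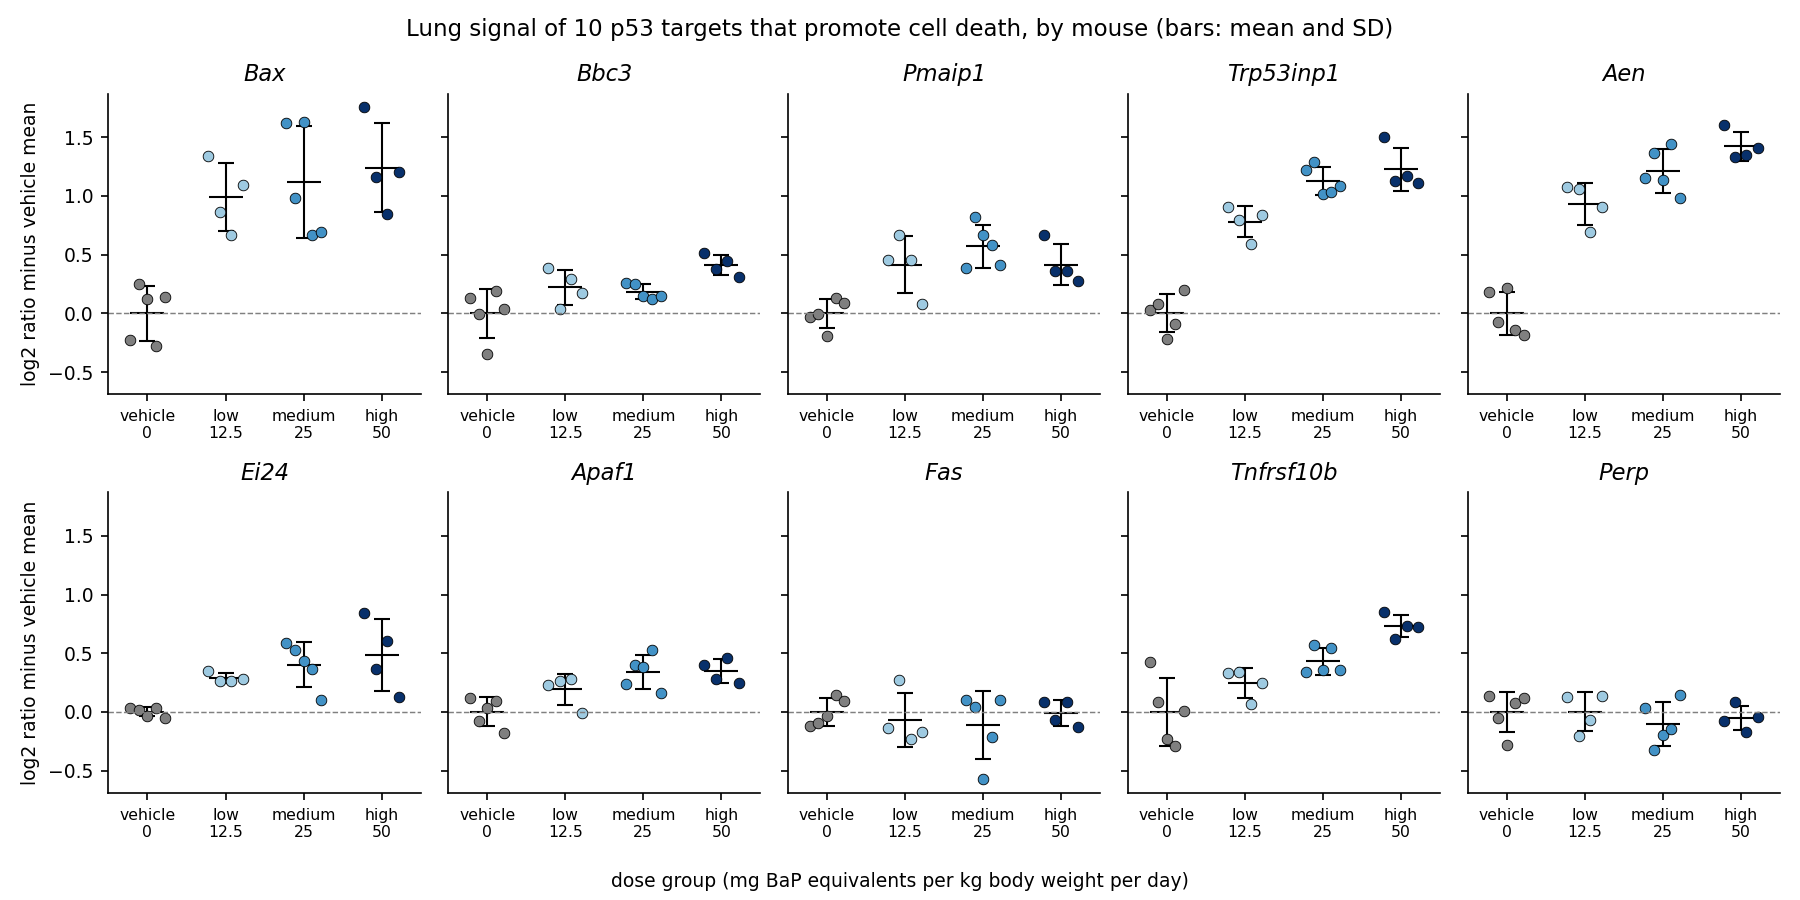
Log2 ratio of each member minus its vehicle mean (y axis) in each of the 18 mice, by dose group in mg BaP equivalents per kg body weight per day (x axis). Points are mice, and bars give the group mean and SD. In the panels of Bax, Trp53inp1 and Aen all 13 exposed mice sit above all 5 vehicle mice, and in those of Fas and Perp the groups overlap.

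Among the BCL-2 family members, Bax changed most. Bax, the pore-forming protein itself (GRCm38.p6, chr7:45461695-45466903), had log2 ratios of -2.18, -1.71, -1.83, -2.23 and -1.81 in vehicle mice 1 to 5 and of -0.61, -1.09, -1.29 and -0.86 in low-dose mice 6, 7, 9 and 10. The ratios were -0.34, -0.97, -0.33, -1.29 and -1.26 in medium-dose mice 11 to 15 and -0.20, -0.80, -1.10 and -0.75 in high-dose mice 16, 17, 18 and 20. Every exposed mouse was thus above every vehicle mouse, while the exposed groups overlapped one another widely. The low dose gave a change of 0.99 ± 0.21 (SE; adjusted p = 0.0518), which missed the threshold by a small margin. The medium dose gave 1.12 ± 0.19 (adjusted p = 0.0020) and the high dose 1.24 ± 0.21 (adjusted p = 0.00094). With the slide as a block the low-dose change was 0.96 with an adjusted p of 0.0483. The SD between mice was 0.24 in the vehicle group and 0.29, 0.48 and 0.38 in the low, medium and high groups. The medium-dose mice lay in 2 clumps, with mice 11 and 13 near the top of all groups and mice 14 and 15 near the bottom of the exposed mice.

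Bbc3 and Pmaip1 encode BH3-only proteins, which act on Bax and its relatives. Bbc3 (chr7:16308398-16318334) ranged from -0.36 to 0.18 in vehicle mice, from 0.03 to 0.37 at the low, from 0.11 to 0.25 at the medium and from 0.30 to 0.50 at the high dose. Only at the high dose did all exposed mice exceed all vehicle mice. The change there was 0.41 ± 0.10 (adjusted p = 0.0152), a 1.33-fold rise, against 0.22 (adjusted p = 0.554) at the low and 0.18 (adjusted p = 0.341) at the medium dose.

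Pmaip1 (chr18:66458604-66465558) did not follow the order of the doses. It ranged from -0.02 to 0.30 in vehicle mice, from 0.25 to 0.84 at the low, from 0.55 to 0.99 at the medium and from 0.44 to 0.84 at the high dose. All medium- and high-dose mice were above the vehicle mice, and low-dose mouse 10, at 0.25, was not. The change of 0.42 ± 0.11 in low-dose mice (adjusted p = 0.210) was followed by 0.57 ± 0.11 in medium-dose (adjusted p = 0.0041) and 0.42 ± 0.11 in high-dose mice (adjusted p = 0.0419). The medium-dose mean was higher than the high-dose mean by 0.16 on the log2 scale (two-sided exact permutation p = 0.206, high against medium). Of the 4 high-dose mice, 3 were below all medium-dose mice, and mouse 16, at 0.84, lay within the medium-dose range.

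Apaf1 (chr10:90989311-91082743), the scaffold of the apoptosome, was the dimmest member, with Cy5 intensities of 130 to 255, though above background on all arrays. Its log2 ratios ran from -1.27 to -0.98 in vehicle mice, from -1.10 to -0.82 at the low, from -0.94 to -0.57 at the medium and from -0.85 to -0.64 at the high dose. The change of 0.34 ± 0.08 (adjusted p = 0.0258) at the medium dose was nearly the same at the high dose, 0.35 ± 0.09 (adjusted p = 0.0289), and at the low dose it was 0.19 (adjusted p = 0.606). Apaf1 thus passed the adjusted p at the upper doses with fold changes of 1.27.

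Trp53inp1 and Aen stood furthest from the vehicle group relative to their error. Trp53inp1 (chr4:11156441-11174379) had log2 ratios of 0.51, 0.56, 0.26, 0.39 and 0.68 in the vehicle mice and of 1.38, 1.28, 1.07 and 1.32 in the low-dose mice. The medium-dose mice had 1.70, 1.77, 1.497, 1.51 and 1.57, and the high-dose mice 1.98, 1.61, 1.65 and 1.59. On this probe the low-dose mice formed a step between the vehicle mice and the other exposed mice, with no overlap on either side. Changes were 0.78 ± 0.10 (adjusted p = 0.000486), 1.13 ± 0.09 (adjusted p = 3.73e-07) and 1.23 ± 0.10 (adjusted p = 1.86e-07) as the dose went up. The second, dimmer probe of the gene gave 0.62, 0.79 and 0.92, and it was called at all 3 doses too. On that probe the low-dose mice (0.78 to 0.96) overlapped the medium-dose (0.85 to 1.17) and high-dose mice (0.92 to 1.39).

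Aen (chr7:78895927-78911209) showed the largest change of the set at the medium and high doses. Its log2 ratios were -0.31, -0.57, -0.27, -0.63 and -0.67 in the vehicle mice and 0.59, 0.57, 0.20 and 0.42 in the low-dose mice. They were 0.66, 0.87, 0.64, 0.95 and 0.49 in the medium-dose mice and 1.11, 0.84, 0.86 and 0.92 in the high-dose mice. The normalized ratio was negative in each vehicle mouse and positive in each exposed mouse. The changes were 0.93 ± 0.11 (adjusted p = 0.00019), 1.21 ± 0.10 (adjusted p = 5.19e-07) and 1.42 ± 0.11 (adjusted p = 8.11e-08), and the second probe gave 0.89, 1.18 and 1.41.

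Ei24 (chr9:36779153-36797334) combined tight vehicle and low-dose groups with wide upper groups. It ranged from 0.14 to 0.22 in vehicle mice, from 0.45 to 0.54 at the low, from 0.29 to 0.78 at the medium and from 0.32 to 1.04 at the high dose. Every exposed mouse was above every vehicle mouse at all doses. The changes were 0.29 ± 0.11 (adjusted p = 0.482), 0.40 ± 0.11 (adjusted p = 0.0353) and 0.49 ± 0.11 (adjusted p = 0.0146). The fit shares its error over the groups, and the SD between mice was 0.04 in the vehicle and low groups, 0.19 in the medium and 0.31 in the high group.

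The death receptors parted. Tnfrsf10b (chr14:69767472-69784411), a receptor of the ligand TRAIL, had log2 ratios of -0.71, -1.06, -1.37, -1.44 and -1.14 in the vehicle mice, of -0.81, -0.80, -1.08 and -0.89 at the low and of -0.81, -0.57, -0.79, -0.60 and -0.79 at the medium dose. The high-dose mice had -0.29, -0.52, -0.41 and -0.42, each above all other mice of the study. Vehicle mouse 1 was above all low-dose mice and 3 of the 5 medium-dose mice, so these groups overlapped. The changes were 0.25 ± 0.11 (adjusted p = 0.600), 0.43 ± 0.11 (adjusted p = 0.0258) and 0.73 ± 0.11 (adjusted p = 0.000506).

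Fas (chr19:34290647-34327775), the receptor of Fas ligand, ranged from 2.13 to 2.40 in vehicle mice, from 2.03 to 2.52 at the low, from 1.68 to 2.36 at the medium and from 2.13 to 2.34 at the high dose. The groups overlapped throughout. The changes were -0.07, -0.11 and -0.01, with 95% intervals of -0.33 to 0.19, -0.35 to 0.14 and -0.27 to 0.25, and they turned positive with median centring in place of loess (0.04, 0.02 and 0.20). A rise of Fas as large as the 0.73 of Tnfrsf10b lay outside the high-dose interval.

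Perp (chr10:18845071-18857073) likewise overlapped between all groups. It ranged from -0.85 to -0.43 in vehicle mice, from -0.77 to -0.43 at the low, from -0.90 to -0.42 at the medium and from -0.74 to -0.48 at the high dose. Changes of 0.00, -0.10 and -0.05 were measured, with a 95% interval of -0.27 to 0.17 at the high dose, and these also turned positive with median centring (0.12, 0.06 and 0.18).

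**Figure D2:**
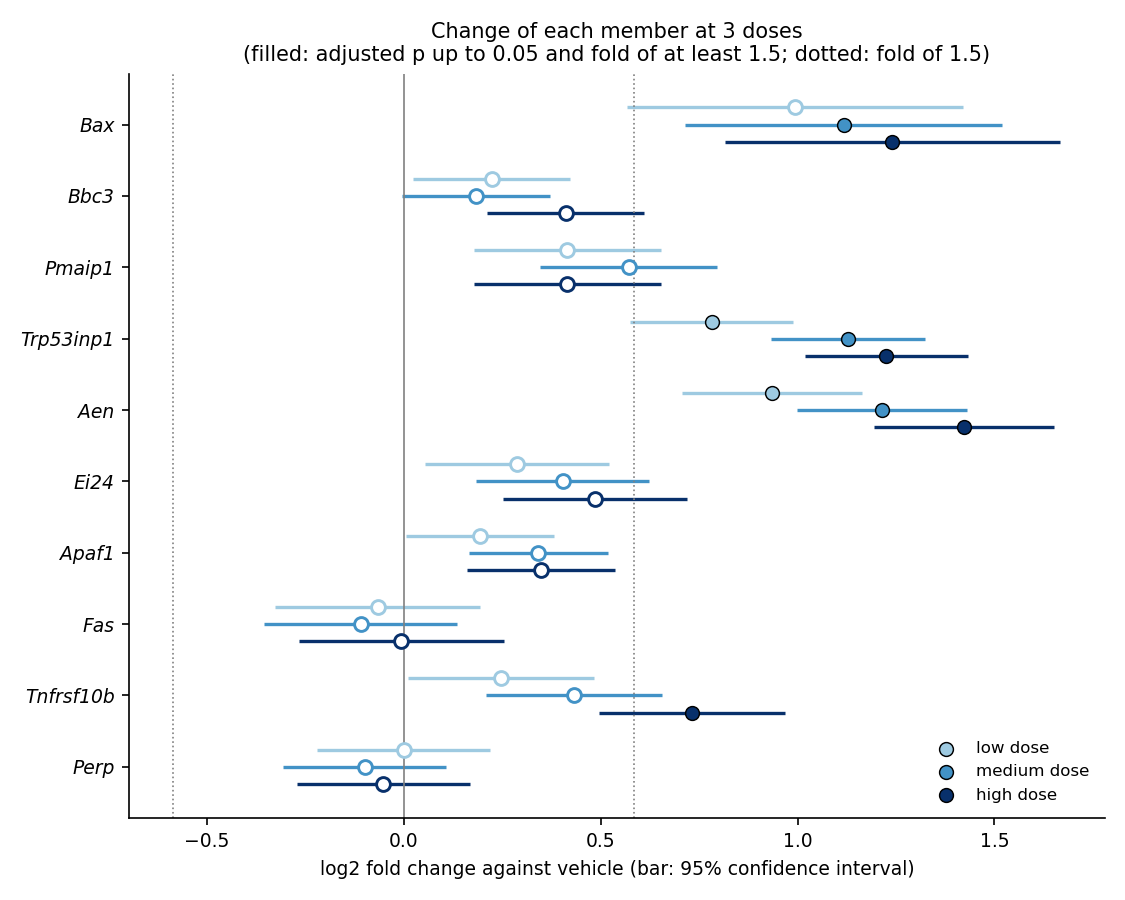
Log2 fold change of each member against the vehicle group (x axis) at the low, medium and high dose, with 95% confidence intervals as bars. Filled points were called, and dotted lines mark a fold of 1.5. Aen, Trp53inp1 and Bax lie at 0.78 or more at all doses, Tnfrsf10b climbs from 0.25 to 0.73, and the intervals of Fas and Perp include 0.

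The exposed groups were then compared with one another, to see whether the members went on rising with dose. No member was called between any pair of doses with limma, where 0% of all probes were called higher between the medium and low, 0.0359% between the high and low and 0% between the high and medium dose. At an unadjusted p under 0.05 there were 2, 3 and 2 of the 10 members in these comparisons. Of all 55681 probes, 2764, 3738 and 2084 had an unadjusted p under 0.05 in the same comparisons, in either direction. From the low to the medium dose the members were Trp53inp1 (0.35, unadjusted p = 0.0023) and Aen (0.28, unadjusted p = 0.0187). From the low to the high dose they were Aen (0.49), Tnfrsf10b (0.49) and Trp53inp1 (0.44), each with all 4 high-dose mice above all 4 low-dose mice and a two-sided exact permutation p of 0.0286, the smallest that 4 against 4 mice allow. Their adjusted p-values lay at 0.218 for Aen and Trp53inp1 and at 0.262 for Tnfrsf10b. From the medium to the high dose they were Tnfrsf10b (0.30, unadjusted p = 0.0153) and Bbc3 (0.23, unadjusted p = 0.0271). The steps of Bax between doses, 0.12 from low to medium and 0.12 from medium to high, were smaller than their errors of 0.21.

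Individual mice were compared through the mean change over the 10 members. This mean lay between -0.10 and 0.07 in the vehicle mice, between 0.30 and 0.51 at the low, between 0.42 and 0.59 at the medium and between 0.52 and 0.81 at the high dose. The vehicle and exposed mice did not overlap, and neighbouring doses did. High-dose mouse 16 had the highest mean, 0.81, and the highest Bax, Pmaip1, Ei24, Trp53inp1, Aen, Bbc3 and Tnfrsf10b values of its group. Among the 10 members, 4, 6 and 8 had each exposed mouse above each vehicle mouse at the low, medium and high dose, beside 1.36%, 2.31% and 3.78% of all probes. For the 8 members that passed the adjusted p at the high dose, a single comparison of this kind gave a two-sided exact permutation p of 0.0079 (0.0159 for Bbc3 and Tnfrsf10b), where 0.0079 is the smallest that 4 against 5 mice allow. These members were picked by the same values, so this p adds no separate support.

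The 18 arrays were spread over 3 slides, and none of the slides lacked a dose group. Slide 1 held 2 vehicle and 2 high-dose mice, slide 2 held 2 and 1, and slide 3 held 1 and 1. The changes within slides 2 and 3 thus rest on 1 high-dose mouse each. All 8 members that rose at the high dose were higher on each of the 3 slides. With each high-dose mouse above each vehicle mouse in these genes, that direction was fixed beforehand and adds no support. Within slides the change ran from 1.31 to 1.59 for Aen, from 0.91 to 1.32 for Trp53inp1 and from 0.93 to 1.45 for Bax. It ran from 0.48 to 1.00 for Tnfrsf10b and from 0.18 to 0.60 for Ei24. Within slides, each dose group kept to a column of its own, so column and dose cannot be told apart. The Cy3 signal of the members in the reference channel differed between exposed and vehicle arrays by -0.12 to 0.03 on the log2 scale, and its part in the ratios was not tested.

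**Figure D3:**
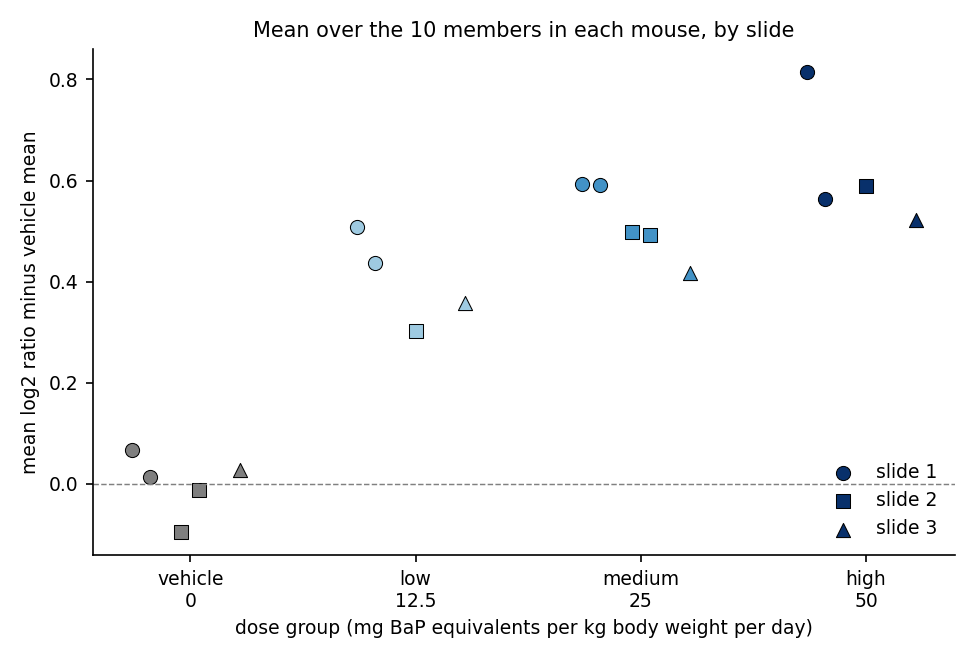
Mean log2 ratio minus vehicle mean over the 10 members (y axis) in each mouse, by dose group (x axis), with the slide given by the shape of the point. On each slide all exposed mice lie above all vehicle mice, and mouse 16 on slide 1 is the highest at 0.81.

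Genes of the same pathways were set beside the members. Of the p53 arrest and repair targets 22 of 25 were above background on all arrays, and of the p53 family and its regulators 10 of 12. The numbers were 12 of 14 for the BCL-2 family, 13 of 13 for the apoptosome and caspases and 11 of 12 for the death receptor pathway. Genes below background on some arrays stayed in the counts and medians, and a change in them could be missed. Of 25 p53 targets that act in growth arrest, repair and feedback, 7, 9 and 11 were called higher at the low, medium and high dose and none lower, with a median change of 0.41 at the high dose (10 or 11 were called under the other 4 normalizations or fits tried on these lists). The called genes were Gdf15 (2.88), a secreted stress protein, Cdkn1a (2.47), the p21 inhibitor of the cell cycle, Ccng1 (1.68), Phlda3 (1.66), Dglucy (1.57), Ephx1 (1.35), Zmat3 (1.23), Polk (0.96), Plk2 (0.95), Psrc1 (0.76) and Sesn2 (0.67). The lowest change of that list was -0.11, for Sfn (adjusted p = 0.852). Aen, the member with the largest change, thus rose by less than 5 genes of the arrest and repair list, each gene read from its brightest probe. The order can differ on other probes of these genes, and no test of it was made.

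Of 12 genes of the p53 family and its regulators, 1 was called higher at the high dose and 2 lower. Mdm2, the ligase that marks p53 for degradation and itself a p53 target, rose by 0.71 (adjusted p = 2.07e-05). Mdm4, its partner, fell by 0.70 (adjusted p = 0.0046), and Trp53, the transcript of p53 itself, fell by 0.61 (adjusted p = 0.0083). The direction of these 3 genes was the same under the other 4 settings. None of the 3 was called with median centring, neither Mdm4 nor Trp53 with the Cy5 channel alone, and Mdm4 but not Trp53 with the slide as a block.

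Few partners of the members within the death machinery passed the test. None of 14 other BCL-2 family genes was called at any dose, and 1 of them, the survival gene Bcl2, passed the adjusted p at the high dose (0.45, adjusted p = 0.0189). The lowest change of that family was -0.15, for Bok (adjusted p = 0.698), and it was 0.07 with median centring. The median of the 14 genes at the high dose was 0.00, as for all probes, and with median centring it was 0.18 against 0.03 for all probes.

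Of 13 apoptosome and caspase genes, none was called at the high dose, while 3 passed the adjusted p upward and 1 downward. The initiator caspase Casp8 (0.41, adjusted p = 0.0021) and Casp6 (0.34, adjusted p = 0.0280) passed the adjusted p upward, and the inhibitor Birc3 passed it downward (-0.39, adjusted p = 0.0398). The partners of Apaf1 in the apoptosome were measured at 0.06 for Casp9 (adjusted p = 0.814) and 0.10 for Cycs (adjusted p = 0.757). Birc5, an inhibitor linked to cell division, had the largest change of the list at the high dose (0.47, adjusted p = 0.0980) and was called at the medium dose (0.66, adjusted p = 0.0134).

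In the death receptor pathway, 1 of 12 further genes was called at the high dose and 2 passed the adjusted p, both upward. Tnfsf10, which encodes TRAIL, the ligand of Tnfrsf10b, rose by 0.62 (adjusted p = 0.0088) at the high dose, and was not called with median centring, with the Cy5 channel alone or with the slide as a block, where its change was 0.72, 0.54 and 0.58. The kinase Ripk1 passed the adjusted p at 0.31 (adjusted p = 0.0488). The adaptor Fadd (0.12, adjusted p = 0.548) and the ligand of Fas, Fasl (-0.10, adjusted p = 0.807), did not, and the lowest change was -0.36 for Tnfrsf25 (adjusted p = 0.157). The Fasl probe was above background on 13 of the 18 arrays.

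**Figure D4:**
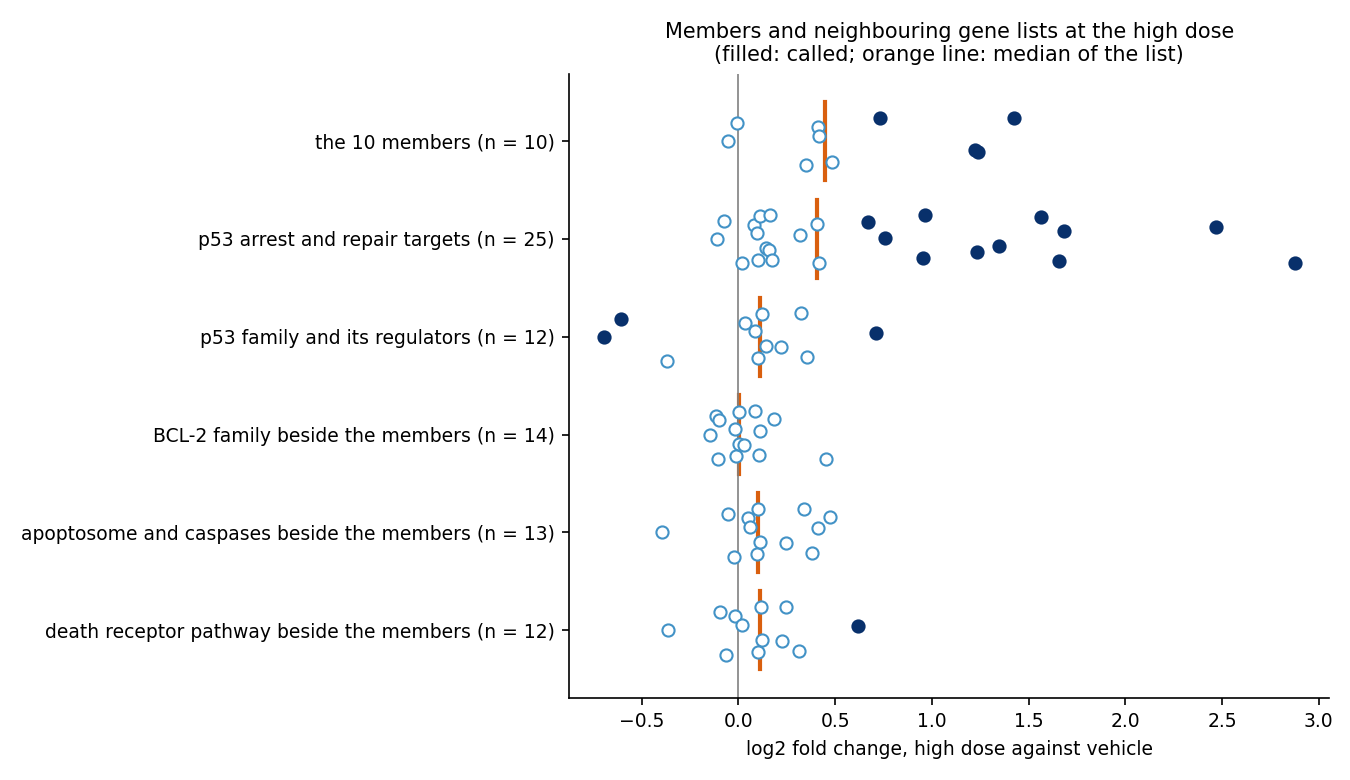
Log2 fold change at the high dose (x axis) for the members and for 5 lists of genes around them (y axis). Each point is a gene, filled where it was called, and the orange line is the median of the list. The members (median 0.45) and the p53 arrest and repair targets (median 0.41) reach further right than the BCL-2 family, the caspases and the death receptor pathway, whose medians are 0.00, 0.10 and 0.11. With median centring these 5 medians were 0.61, 0.47, 0.18, 0.33 and 0.23.

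For the 4 members called at the high dose, the called genes with the most similar change over the 18 mice were sought among 308 candidates, by the root mean square difference in log2 change from the vehicle mean. Bax was nearest to Ephx1 (0.31), Nr1d2 (0.36) and Per3 (0.37), and Tnfrsf10b to Coq10b (0.16), Ccnd1 (0.16) and Prss12 (0.17). Trp53inp1 was nearest to Ephx1 (0.17), Serp2 (0.18) and Exoc4 (0.18), and Aen to Serp2 (0.16), Phlda3 (0.20) and Inka2 (0.21). Bax, with its wide spread between mice, had no neighbour as close as the other members did. Since the candidates were called in the same comparison, this is a description.

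Markers of lung cell types were read beside the members, since they moved with dose in part. The markers of alveolar type 2 cells, alveolar type 1 cells, airway cells, endothelium, B cells, neutrophils and alveolar macrophages that had a probe were above background on all arrays, and of 8 T and natural killer cell markers 6 were. The mean over 5 alveolar type 1 markers ranged from -0.12 to 0.10 in vehicle and from -0.40 to -0.25 in high-dose mice, without overlap. The median change of these 5 markers at the high dose was -0.29, and it was -0.02 with median centring and -0.04 with scale normalization. Of these, Cav1 was called lower (-0.68). The mean over 8 T and natural killer cell markers ranged from -0.39 to 0.27 in vehicle and from -0.65 to -0.34 in high-dose mice. Of these 8, 6 were lower at the high dose and 2 higher, Cd8a (0.21) and Cd3g (0.07), with a median change of -0.29. Only Gzma was called lower (-2.25), and it weighs heavily on the mean. The mean over 6 B cell markers ranged from -0.42 to 0.36 in vehicle and from 0.19 to 0.38 in high-dose mice. At the high dose 4 of them were higher and 2 lower, with none called. At the medium dose 2 were called higher, Ms4a1 (0.70) and Cd79b (0.70). Among 6 endothelial markers at the high dose, 2 were higher and 4 lower, with a median change of -0.10 (0.09 with median centring). Pecam1 was called higher (0.74), and Kdr passed the adjusted p downward (-0.38, adjusted p = 0.0168) without reaching the fold limit. The mean over these 6 markers ranged from -0.29 to 0.13 in vehicle and from -0.06 to 0.10 in high-dose mice. The means over alveolar type 2, airway, neutrophil and alveolar macrophage markers overlapped between vehicle and high-dose mice, and none of these genes was called. All 6 alveolar type 2 markers were nonetheless lower at the high dose, with a median change of -0.21 (0.04 with median centring). Among them Abca3 (-0.35, adjusted p = 0.0335) and Slc34a2 (-0.37, adjusted p = 0.0401) passed the adjusted p downward without reaching the fold limit. With median centring no marker was called at the high dose. The part of these shifts in the members' changes was not tested.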

How the data were processed

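Lung RNA of 18 mice was measured, 1 two-colour array per mouse. The authors deposited scanner output (Agilent Feature Extraction 11.0.1.1, per the file headers), which gives the median intensity of each spot and of its local background in Cy5 and Cy3. The same deposited files hold the software's log10 ratio of Cy5 over Cy3. A deposited table of the authors' log2 ratios correlated with the values computed here at r of 0.9955 to 0.9982 and so holds Cy5 over Cy3. The medians of its columns were -0.03 to -0.02, and its exact centring is not given in the sources used here.

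Median intensities were taken without background subtraction, as in the study's methods, and normalized by loess within arrays (limma 3.58.1, R 4.3.3). Control and outlier spots (215 to 307 per array) had weight 0 and were left out, and spots of a probe were averaged. The 4 groups were fitted together with lmFit and eBayes, and p-values were adjusted by Benjamini-Hochberg over 55681 probes within each comparison. The study's MAANOVA test was not run, and limma stands in for it. Single values were compared by exact permutation tests. Probes were named through RefSeq accessions (GRCm38.p6, 27235 probes named), and coordinates are those of that table; the array's own design build was not used. The fit was tested on simulated data. Alternatives were normexp background correction (offset 50), ratios as the scanner software gives them, the authors' table, centring on the median, scale normalization between arrays, the Cy5 channel alone, the slide as a block, probes above background, only the groups compared, adjustment over the 3 doses, no fold limit, the mean of a gene's probes, and each mouse left out.

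Named genes were the members, the genes of 5 pathway lists called at the high dose or with the largest rise or fall of their list, and the 3 called genes nearest to each called member. A few partners of the members in those lists (Casp6, Casp8, Casp9, Cycs, Birc3, Ripk1, Fadd, Fasl) were named after their values were seen. So were the called cell type markers and Kdr, Cd8a, Cd3g, Abca3 and Slc34a2. For 1 gene of the lists the values are not reported here. Members and lists were chosen with earlier results of these data known. The number of arrays limits the precision. In Cy5, 52.9% to 62.1% of probes per array stood well above background, among them each member probe on every array, and none of those was saturated.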

Additional observations from a re-analysis of the deposited data

Results flagged for a closer look

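Values that stood apart from the rest of their group were sought in each of the 12 probes and 4 groups, 48 groups in all, with Dixon's test, by which chance alone flags about 1 group in 20. It marked 2. Trp53inp1 in high-dose mouse 16 was at 1.98 against 1.59 to 1.65 in the other high-dose mice, with a gap of 0.839 of the group's range. Apaf1 in low-dose mouse 10 was at -1.10 against -0.86 to -0.82 in the other low-dose mice, with a gap of 0.839 of the range. Leaving either mouse out changed no call of these genes.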

How the results depend on the processing

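The calls were recomputed under 12 alternatives with all mice and with each of the 18 mice left out. Median centring in place of loess left 0 members called at the low dose, while dropping the fold limit gave 7 members for the medium and 8 for the high dose. Median centring also turned the small changes of Fas to 0.0398, 0.0244 and 0.20 and those of Perp to 0.12, 0.0572 and 0.18 (in the order of the doses), and scale normalization between arrays turned Fas at the high dose to 0.13; the cause was not tested. With 1 mouse left out, Perp at the low dose ran from -0.0704 to 0.0682, Fas at the medium dose from -0.16 to 0.0069 and Fas at the high dose from -0.0381 to 0.0334. Bax at the low dose was called under 7 of the 12 alternatives, with a change of 0.96 to 1.05 throughout, and also without mouse 11, 13, 14, 15, 16 or 18. Ei24 was called at the high dose without mouse 20 (0.60), and Pmaip1 at the medium dose without mouse 4, 5, 11 or 15 (up to 0.62) and with the scanner software's ratios or scale normalization (0.60 and 0.59). No member was called between doses under the 11 alternatives run on those comparisons or with any mouse left out. The other normalizations of the gene lists were chosen after seeing the data. Mouse numbers differ between groups, so no paired analysis was possible because no number is shared. All member probes were well above background.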
